A study of Homo sapiens with 6 samples.

Results

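The genes described here encode 9 proteins of megakaryocytes and platelets: ITGA2B, ITGB3, GP9, GP1BA, PF4, PPBP, VWF, THBS1 and SELP. They were taken by name as textbook genes of these cells, 9 of 20136 protein-coding genes, and the rule for choosing them used no measured value. Earlier results of these data were, however, known when they were chosen. For each gene the SMARCA4 peaks were collected in its window, which is the annotated hg19 span plus 10 kb on each side. The 9 windows held 12 of the 28265 peaks of the deposited list.

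SMARCA4 ChIP-seq was performed in K562, an established human chronic myelogenous leukaemia line, with 3 SMARCA4 ChIP libraries and 3 input libraries. The study asked where SMARCA4 binds chromatin relative to G-quadruplex (G4) structures, which form in DNA with closely spaced runs of guanine. The cells received no treatment. Crosslinking took 30 min in 2 mM disuccinimidyl glutarate, followed by 10 min in 1% formaldehyde. Chromatin was then sonicated to fragments with an average size of 150 to 400 bp. The series text calls the replicates technical, whereas the paper calls them biological. The list keeps regions found in at least 2 of 3 replicates and carries a start and an end only. No height, read number or SD between replicates can therefore be given for a peak, and a gene without a peak is one where no region passed calling in 2 of 3 replicates, not one shown to be unbound.

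Megakaryocytes are the bone marrow cells that shed platelets, and they share a progenitor with the red cell lineage. Platelets adhere through the GPIb-IX-V receptor and aggregate through the integrin αIIbβ3, and their alpha granules store chemokines and adhesive proteins. SMARCA4 is an ATPase of the SWI/SNF complexes, which move nucleosomes at promoters and enhancers. The labelled cell type was checked against marker genes: all 9 erythroleukaemia markers, among them GATA1, KLF1 and HBG2, had a peak in their window and 8 of 9 had a promoter peak. Of the lymphoid markers 1 of 9, PAX5, had a promoter peak, and of the liver markers 0 of 5.

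A peak was called a promoter peak where it overlapped the 1 kb on either side of any transcript start of the gene, and a distal peak otherwise. Of the 9 genes, 4 had at least 1 peak (44.4%, exact Clopper-Pearson 95% interval 13.7 to 78.8%, counting error only), beside 63.1% of all protein-coding genes. A promoter peak was present at 2 of the 9, beside 48.1%, and a distal peak at 4 of the 9, beside 45.3%. In the gene spans alone, without the flanks, 2 genes had a peak, beside 52.6% of coding genes, and 1 had a distal peak, beside 23%. The interval of the 4 genes held the background share, and a difference from that share was not tested. It treats the 9 genes as independent draws, although they were chosen by name and the windows of PF4 and PPBP overlap. The peaks were unevenly spread within the group: the integrin subunits ITGB3 and ITGA2B held 6 and 4 of them, GP9 and GP1BA held 1 each, and PF4, PPBP, VWF, THBS1 and SELP held none. In the map of the 9 windows the peaks gather at the integrin genes.

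**Figure D1:**
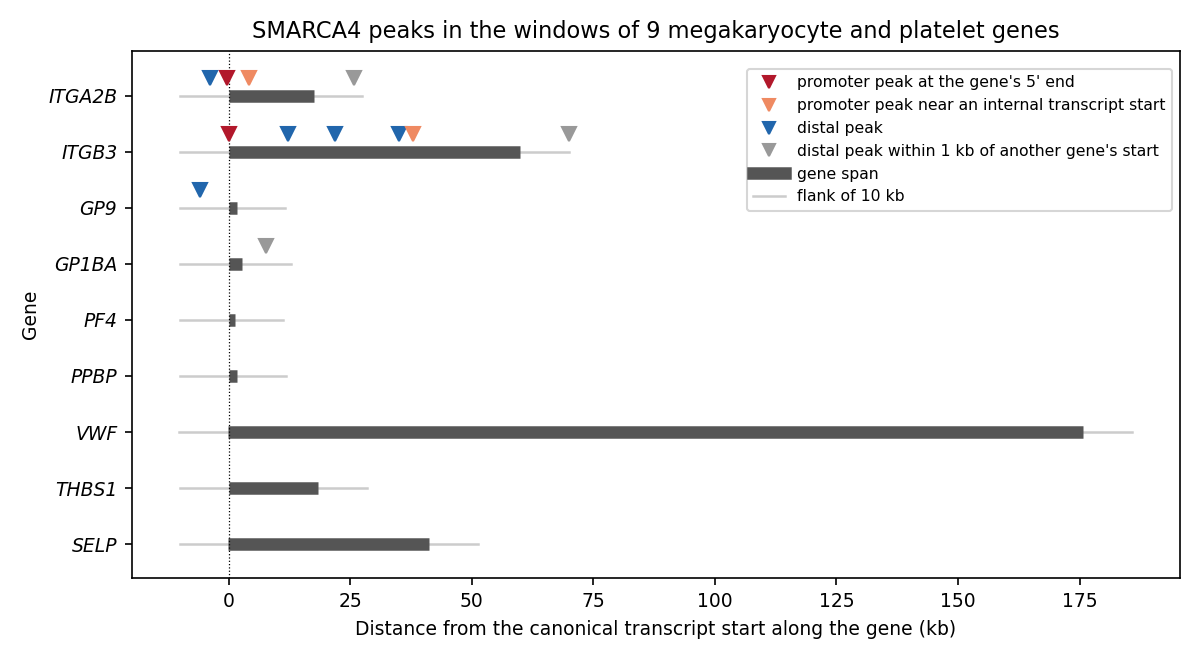
SMARCA4 peaks (triangles, at their centres) in the window of each gene, by distance from the canonical transcript start along the gene in kb; dark bars are gene spans and thin lines the flanks of 10 kb. ITGA2B and ITGB3 carry 4 and 6 peaks, GP9 and GP1BA 1 each, and the other genes none.

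Short motifs of factors known in blood cells, and of G4, were searched on both strands in the 300 bp around each peak centre. A match describes the letters of the window and not binding by the factor. GATA was spelled AGATAA or AGATAG or TGATAA or TGATAG, and was found in 5 of the 12 peaks, beside 46.7% of all peaks. ETS (AGGAAGT or CGGAAGT) was found in 1 (12.6%), RUNX (TGTGGT or TGCGGT) in 2 (22.2%) and AP-1 (TGACTCA or TGAGTCA) in 2 (14.8%). NF-E2/MAF (GCTGACTCA or GCTGAGTCA, which contains AP-1) was found in 1 (4.43%), and KLF (CCACACCC) in 1 (3.69%). A GATA-TAL1 pair, CTG followed after 7 to 9 bases by AGATAA or TGATAA, was found in none (10.9%). SP/KLF (GGGCGG) was found in 6 peaks (36.5%), and the G4 motif in 4 (18.9%). G4 here means 4 guanine runs, each 3 or longer, separated by 1 to 7 bases, and a run may overlap SP/KLF. With 12 peaks each of these counts is small, and the interval of the GATA share, 15.2 to 72.3%, held the background. That interval treats the peaks as independent, although 6 lie in the ITGB3 window and 4 in the ITGA2B window.

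The integrin subunits came with promoter peaks. ITGA2B (ENSG00000005961.19_12, chr17:42449548-42467017 in hg19, minus strand) encodes αIIb, the platelet-restricted subunit of the fibrinogen receptor. Its window of 37.5 kb held 4 peaks, whereas 4381 coding genes with a window within 20% of that length had a median of 1, and 16.0% of them had at least as many. Its span alone held 1 peak, which was also the median of 1954 coding genes of like span, so its count above the median came from the flanks. Of the 4 peaks, 3 lay within 5 kb of the start and the fourth lay 25.9 kb downstream of it, at the start of the neighbour FAM171A2.

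The promoter peak at the 5′ end of ITGA2B (chr17:42467081-42467488, 408 bp) ended 64 bp upstream of the annotated start and had its centre 0.267 kb upstream. The promoter was CpG-poor: the CpG observed/expected ratio within 500 bp of the start was 0.140, below the limit of 0.6 used here. The GC content of the peak was 50.2%. The middle of the peak held an ETS match, a RUNX match 2.5 bp from the centre and an SP/KLF match. The stretch that carries them (chr17:42467259-42467428) and the 150 bases before the start (chr17:42467018-42467167), both hg19 and read along the minus strand, are shown because this is the only CpG-poor promoter of the group with a peak. Capitals mark the motif matches, in order SP/KLF, ETS and RUNX in the peak and GATA in the upstream bases.
ITGA2B promoter peak: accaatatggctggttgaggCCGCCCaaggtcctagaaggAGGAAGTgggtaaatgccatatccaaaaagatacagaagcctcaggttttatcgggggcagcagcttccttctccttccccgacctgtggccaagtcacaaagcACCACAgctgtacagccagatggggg
ITGA2B upstream: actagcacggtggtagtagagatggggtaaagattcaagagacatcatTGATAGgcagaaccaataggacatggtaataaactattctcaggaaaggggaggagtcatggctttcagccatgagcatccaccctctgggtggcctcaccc
The GATA match in the upstream bases lay 99 bp before the start and inside the peak, but outside its central 300 bp.

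The widest ITGA2B peak (chr17:42470549-42471209) was distal, 661 bp wide with its centre 3.86 kb upstream of the start. It was also the widest of all 12 peaks, and wider than 80.4% of the whole list. A single GATA match lay 1.5 bp from its centre, in the bases chr17:42470858-42470903 of hg19, read along the minus strand with the match in capitals.
ITGA2B upstream distal peak: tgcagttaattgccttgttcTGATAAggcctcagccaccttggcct
The remaining peak of the gene body (chr17:42462599-42463252, 654 bp) was centred in exon 4, 4.09 kb into the gene. It counted as a promoter peak only through internal starts of short ITGA2B transcripts, most of them annotated as retained introns. This peak was GC-rich, at 67.6%, and held 4 SP/KLF matches and a G4 match in its central 300 bp. In its sequence (chr17:42462775-42462914, hg19, minus strand) the capitals mark the SP/KLF matches and, in the long run, the G4 motif, which reads as runs of C because its guanines lie on the plus strand.
ITGA2B exon 4 peak: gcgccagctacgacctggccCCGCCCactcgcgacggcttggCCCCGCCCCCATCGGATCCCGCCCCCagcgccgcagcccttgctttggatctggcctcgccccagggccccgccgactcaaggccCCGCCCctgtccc
The ITGA2B peaks thus differed in base composition, with GC contents of 45.8% upstream, 50.2% at the start and 67.6% in exon 4.

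ITGB3 (ENSG00000259207.10_8, chr17:45331193-45391109, plus strand) encodes β3, the partner of αIIb, which also pairs with αV outside the platelet lineage. Its window of 79.9 kb held 6 peaks, the most of the group. Among 2709 coding genes of like window length the median was 1 peak, and 5.46% had 6 or more. Its span alone held 5 peaks, against a median of 1 in 2024 coding genes of like span, of which 4.59% had at least as many. Of these peaks 5 overlapped the gene and the sixth, 70.0 kb downstream of the start, coincided with the starts of EFCAB13 and EFCAB13-DT.

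The ITGB3 start carried a narrow promoter peak (chr17:45331140-45331434, 295 bp) that covered the start and was centred in exon 1. It was the narrowest of the 12 peaks. The promoter was CpG-rich, with an observed/expected ratio of 0.910, and the peak had a GC content of 76.9%. It held 3 SP/KLF matches, and a G4 match at its edge began 2 bases outside the peak, in runs of C that extend farther upstream. The 300 bases from 250 before to 50 after the ITGB3 start held SP/KLF matches and a G4 motif but no GATA or ETS match, whereas those of ITGA2B held a GATA and an ETS match and neither of the former. Neither window held a RUNX match.

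Further peaks ran through the introns of ITGB3. The peak in intron 1 (chr17:45343248-45343750, 503 bp, 12.3 kb from the start) held 2 GATA and 2 AP-1 matches, and an AP-1 match lay 7 bp from its centre. The peak in intron 9 (chr17:45368877-45369298, 422 bp, 37.9 kb from the start) held 2 GATA matches and a RUNX match. In the central 300 bp, these were the 2 peaks of the group with both a GATA match and an ETS, RUNX or AP-1 match. The intron 9 peak lay within 1 kb of the start of an internal transcript annotated for nonsense-mediated decay, and was a promoter peak for that reason alone. The sequences are chr17:45343391-45343626 and chr17:45368966-45369180, hg19, plus strand, with the GATA and AP-1 matches in capitals in the former and the GATA and RUNX matches in the latter.
ITGB3 intron 1 peak: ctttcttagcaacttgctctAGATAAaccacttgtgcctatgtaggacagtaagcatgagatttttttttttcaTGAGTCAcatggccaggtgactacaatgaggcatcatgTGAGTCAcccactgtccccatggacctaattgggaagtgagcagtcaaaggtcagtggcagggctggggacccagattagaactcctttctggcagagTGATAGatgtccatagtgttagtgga
ITGB3 intron 9 peak: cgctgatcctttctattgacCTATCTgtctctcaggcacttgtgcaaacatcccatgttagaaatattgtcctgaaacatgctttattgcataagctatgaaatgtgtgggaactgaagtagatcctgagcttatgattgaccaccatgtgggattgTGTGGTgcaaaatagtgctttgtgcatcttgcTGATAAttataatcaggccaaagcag
The widest ITGB3 peak lay in intron 6 (chr17:45365807-45366454, 648 bp, 34.9 kb from the start). Its central 300 bp held an NF-E2/MAF match, found in 1 of the 12 peaks there and in 2 when whole peaks were searched. The match overlaps an AP-1 match, and the window also held an SP/KLF and a KLF match and no GATA match. The bases around the NF-E2/MAF match are chr17:45366053-45366101 of hg19, plus strand, with the match in capitals.
ITGB3 intron 6 site: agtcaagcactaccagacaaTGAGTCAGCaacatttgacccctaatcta
In intron 2 a peak of 343 bp (chr17:45352803-45353145, 21.8 kb from the start) held a G4 match with an SP/KLF match inside it and a GATA match beside it. Its bases chr17:45353000-45353076, hg19, plus strand, are printed because a G4 motif and a GATA match stood side by side in this intron peak, with the G4 motif in the longer run of capitals.
ITGB3 intron 2 peak: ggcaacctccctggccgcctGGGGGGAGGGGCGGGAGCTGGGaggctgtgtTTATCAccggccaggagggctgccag

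Of the GPIb-IX receptor, which binds von Willebrand factor, both genes described had a distal peak and neither a promoter peak. Among subunit genes outside the group, GP1BB had 4 peaks with 1 of them at a promoter, whereas GP5 had 0 peaks. GP9 (ENSG00000169704.5_4, chr3:128779622-128781249, plus strand) encodes the small subunit glycoprotein IX. Its peak (chr3:128773360-128773995) was 636 bp wide, centred 5.95 kb upstream of the start and not near the start of another named gene. It held 2 GATA matches at 55.5 and 54.5 bp on either side of the centre and no other listed motif. The sequence that spans them (chr3:128773599-128773754, hg19, plus strand) has both matches in capitals.
GP9 upstream peak: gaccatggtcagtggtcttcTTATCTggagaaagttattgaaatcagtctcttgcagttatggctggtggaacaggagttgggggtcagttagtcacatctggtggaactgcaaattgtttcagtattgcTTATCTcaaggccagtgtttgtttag
GP1BA (ENSG00000185245.9_9, chr17:4835572-4838318, plus strand) encodes the subunit that contacts von Willebrand factor. Its peak (chr17:4843132-4843460, 329 bp) lay 7.72 kb downstream of the start, at the shared start region of RNF167 and SLC25A11, and held none of the listed motifs. Among coding genes of like window length, 45.2% had at least as many peaks as GP9 and 47.1% at least as many as GP1BA, so 1 peak was common for windows of this size.

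The granule chemokines had no peak. PF4 (ENSG00000163737.5_9, chr4:74846528-74847744, minus strand) encodes platelet factor 4, and PPBP (ENSG00000163736.4_9, chr4:74852156-74853907, minus strand) the precursor of β-thromboglobulin and CXCL7. The genes lie close together and their windows overlap, so they are not separate observations. The nearest peak lay 56.4 kb from the PF4 start and 50.2 kb from the PPBP start, against a median of 5.90 kb over all coding genes. Among coding genes of like window length 56.0% and 54.6% also had no peak. The windows were thus short ones in which an empty result was common, although the nearest peak was farther for only 27.9% and 29.4% of coding genes.

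The adhesive proteins had no peak either, in windows where an empty result was less common. VWF (ENSG00000110799.14_7, chr12:6058043-6233936, minus strand) encodes von Willebrand factor, the carrier of factor VIII and ligand of GPIb, which endothelial cells make as well. Its window of 195.9 kb was the longest of the group, and 33.0% of 1147 coding genes of like length had no peak. THBS1 (ENSG00000137801.11_7, chr15:39873280-39891667, plus strand) encodes thrombospondin 1, an abundant alpha granule protein, and 32.9% of 4325 coding genes of like length had no peak. SELP (ENSG00000174175.17_13, chr1:169558087-169599431, minus strand) encodes P-selectin, the granule membrane receptor exposed on activated platelets, and 30.5% of 3317 genes of like length had none. The nearest peaks lay 43.0 kb from the VWF start, 63.4 kb from the THBS1 start and 121 kb from the SELP start. SELP was the most remote of the group, with 17.6% of coding genes farther from a peak.

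**Figure D2:**
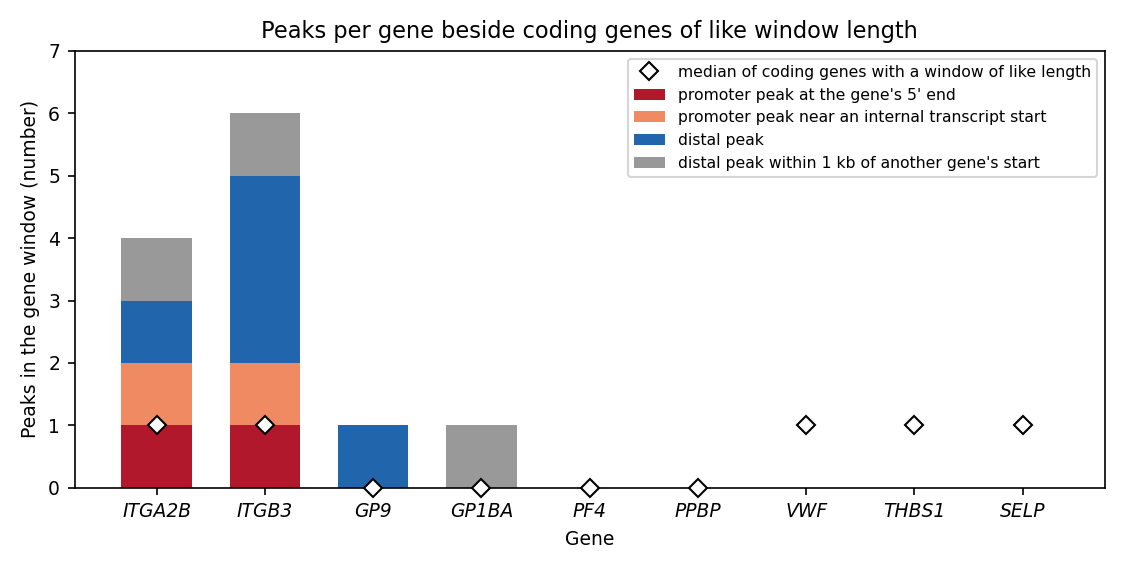
Number of peaks in each gene window, by kind of peak (stacked bars), and the median number in coding genes whose window length was within 20% (diamonds). ITGA2B and ITGB3, with 4 and 6 peaks, stand above a median of 1, and VWF, THBS1 and SELP, with 0, below it.

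Promoter sequence separated the genes in another way. By the CpG ratio 7 of the 9 promoters were CpG-poor and 1 of these, ITGA2B, had a promoter peak, beside 24.2% of 8106 CpG-poor coding promoters. ITGB3 and THBS1, with a ratio of 0.762, were CpG-rich and 1 of the 2 had a promoter peak, beside 64.3% of 12012. In the 300 bases from 250 before to 50 after the canonical start, a GATA match was present in 6 of the 9 promoters, against 18.5% of all coding promoters. RUNX matches were present in 6 (18.9%), ETS matches in 4 (16.6%), SP/KLF matches in 3 (60.9%), G4 matches in 3 (33.6%) and AP-1 matches in 0 (3.57%). These background shares were not matched for CpG content: most coding promoters were CpG-rich, whereas 7 of the 9 were CpG-poor. The differences were not tested. GATA matches were present with a promoter peak, at ITGA2B, and without, at GP1BA, PF4, PPBP, VWF and SELP. The 6 promoters with a RUNX match, those of GP9, GP1BA, PF4, PPBP, VWF and SELP, lacked a promoter peak, but the RUNX match in the ITGA2B promoter peak lay just beyond this window. The 150 bases before the start of 2 genes without a promoter peak are shown for comparison with ITGA2B (hg19; GP1BA chr17:4835422-4835571, plus strand; PPBP chr4:74853908-74854057, minus strand). Capitals mark RUNX and GATA matches in GP1BA, and RUNX and ETS matches in PPBP.
GP1BA upstream: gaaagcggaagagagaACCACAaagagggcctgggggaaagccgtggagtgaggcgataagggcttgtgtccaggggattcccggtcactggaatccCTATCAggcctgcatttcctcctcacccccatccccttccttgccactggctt
PPBP upstream: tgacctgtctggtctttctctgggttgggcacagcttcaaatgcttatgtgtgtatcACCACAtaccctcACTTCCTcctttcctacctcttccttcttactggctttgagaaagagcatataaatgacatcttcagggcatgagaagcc

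The motifs were also read by the position of the peaks relative to starts. Of the 5 peaks farther than 1 kb from any coding start, in ITGA2B, ITGB3 and GP9, 4 held a GATA match, beside 67.3% of the 15636 such peaks of the list, and 2 held AP-1, beside 21.8%. At least 2 GATA matches were present in 2 of the 5, beside 35.8%. SP/KLF was present in 2 of the 5, the intron 2 and intron 6 peaks of ITGB3, beside 15% of all such peaks. As the plot of motif positions shows, SP/KLF was also found in the peaks at the starts of ITGA2B and ITGB3 and in ITGA2B exon 4.

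**Figure D3:**
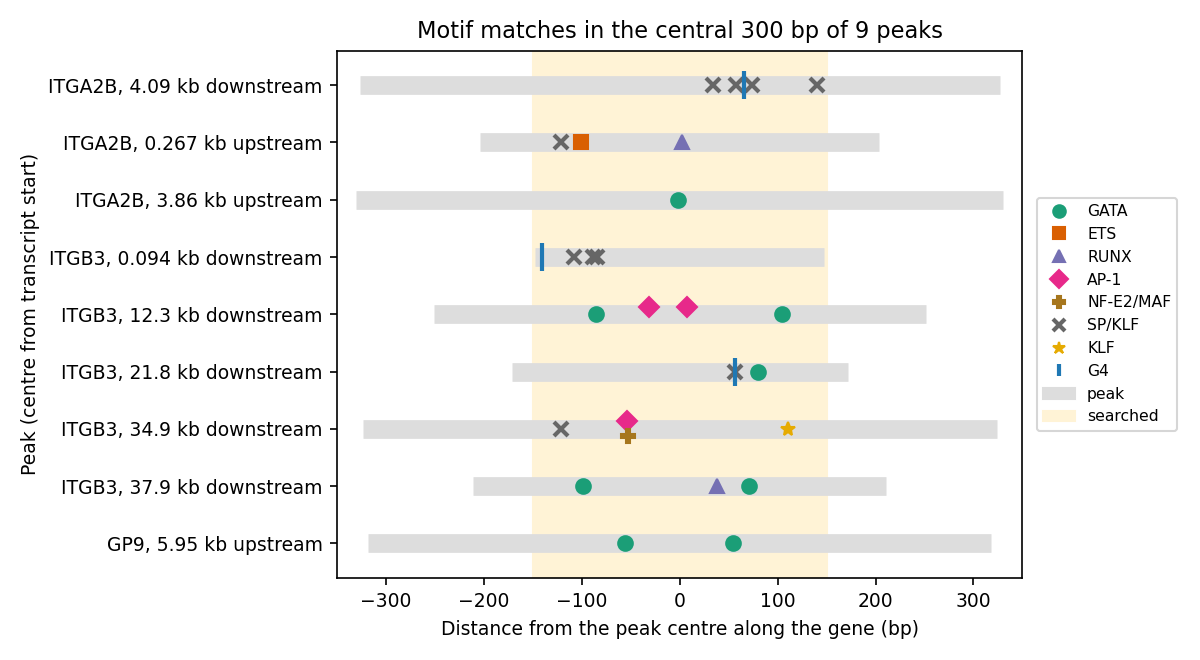
Motif matches (symbols) in the central 300 bp (shaded) of the 9 peaks that are not at the start of another gene, by distance from the peak centre in bp along the gene; grey bars are the peaks. GATA matches lie in 5 of these peaks, and in ITGA2B the match of the peak 3.86 kb upstream is 1.5 bp from the centre.

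The peaks of the group had a higher median width than the list, a difference not tested. Their median width was 415 bp, from 295 to 661 bp, against 368 bp over all peaks. The 9 peaks not at the start of another named gene had a median of 503 bp. The 5 peaks away from coding starts had a median of 636 bp, against 341 bp for all such peaks, and 4 of them (ITGA2B, GP9 and both the intron 1 and intron 6 peaks of ITGB3) were 503 bp or wider. The promoter peaks at the 5′ ends of ITGB3 and ITGA2B, by contrast, were 295 and 408 bp wide, beside a median of 414 bp for all peaks within 1 kb of a coding start.

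**Figure D4:**
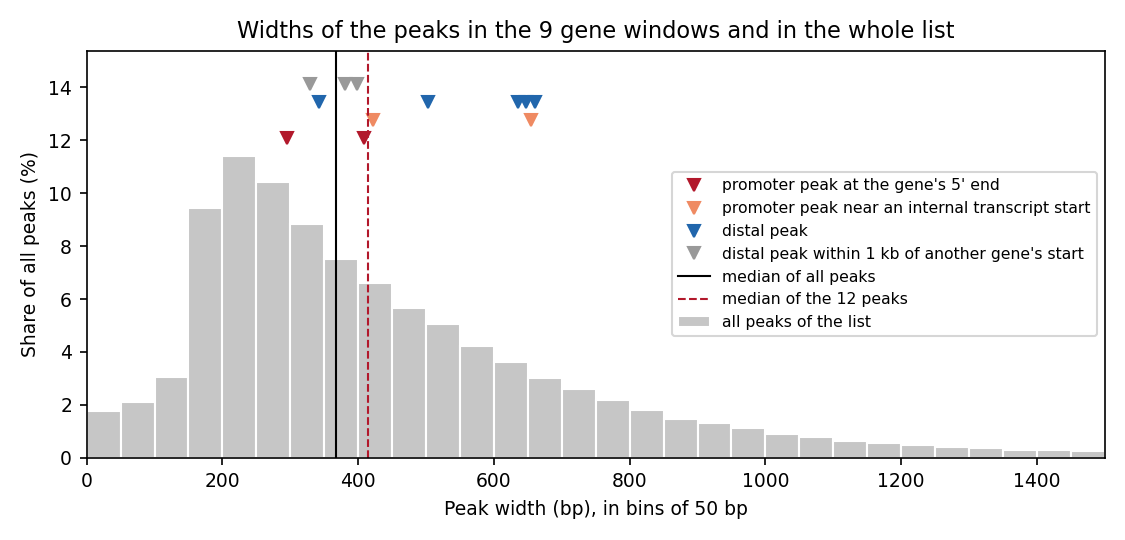
Widths of all 28265 peaks in bins of 50 bp (bars, share in %, widths over 1500 bp not drawn) and of the 12 peaks in the gene windows (triangles, by kind of peak). The median was 415 bp for the 12 peaks (dashed line) and 368 bp for all peaks (solid line).

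G4 motifs were present around every gene of the group and, as over all coding windows, mostly outside peaks. A motif is a sequence match and does not show that a G4 was folded in these cells. The windows held 128 different motifs, of which 6 (4.69%) lay wholly inside a peak, against 4.28% of 246114 motifs in all coding windows. ITGA2B had 4 of 24 inside a peak, 1 of them in the peak at FAM171A2, and ITGB3 2 of 20, and the remaining genes had none. Within 1 kb of the canonical starts 13 motifs were found and 0 lay wholly inside a peak, beside 20.9% of 37374 near all coding starts. Of these 13 motifs, 5 were at THBS1, which had no peak, and at ITGB3 the nearest motif crossed the edge of the peak by 2 bases. VWF had 48 motifs in its long window and none in a peak.

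Other genes of the lineage placed the group among its neighbours in function. Of 22 further platelet receptor and adhesion genes 10 had a peak (45.5%) and 7 a promoter peak (31.8%), beside 44.4% and 22.2% of the 9 genes. Most peaks among them were at F2RL3 (6), ITGB1 (6) and PEAR1 (5), and CD36, ITGA2 and P2RY12 had none. Of 20 genes for granule content and enzymes 16 had a peak but 7 a promoter peak, with 7 peaks at TGFB1 and none at F13A1 and SPARC. Cytoskeletal and signalling genes had a promoter peak at 16 of 17, with 11 peaks at STIM1 (window of 259 kb), 6 at TUBB1 (27.2 kb) and none at SYK. Transcription factors of the lineage had a promoter peak at 15 of 18. By number, ZFPM1 (13 peaks), NFE2 (12) and RUNX1 (11) led, although the RUNX1 window is long (1237 kb, against 28.9 kb for NFE2). There was no peak at FLI1 and ETS1, which lie in a long stretch without listed peaks that may not have been covered by the list. As a comparison from the red cell lineage, 18 of 20 red cell membrane genes had a promoter peak, including 7 of 9 with CpG-poor promoters. Over all coding genes 63.1% had a peak, 48.1% a promoter peak and, among CpG-poor promoters, 24.2% a promoter peak. The group had a promoter peak at 1 of its 7 CpG-poor promoters, and with so few genes no difference from that last share can be read. The counts of all lists include peaks at the start of a neighbouring gene. The lists differ in window length and promoter type, and the differences between them were not tested.

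**Figure D5:**
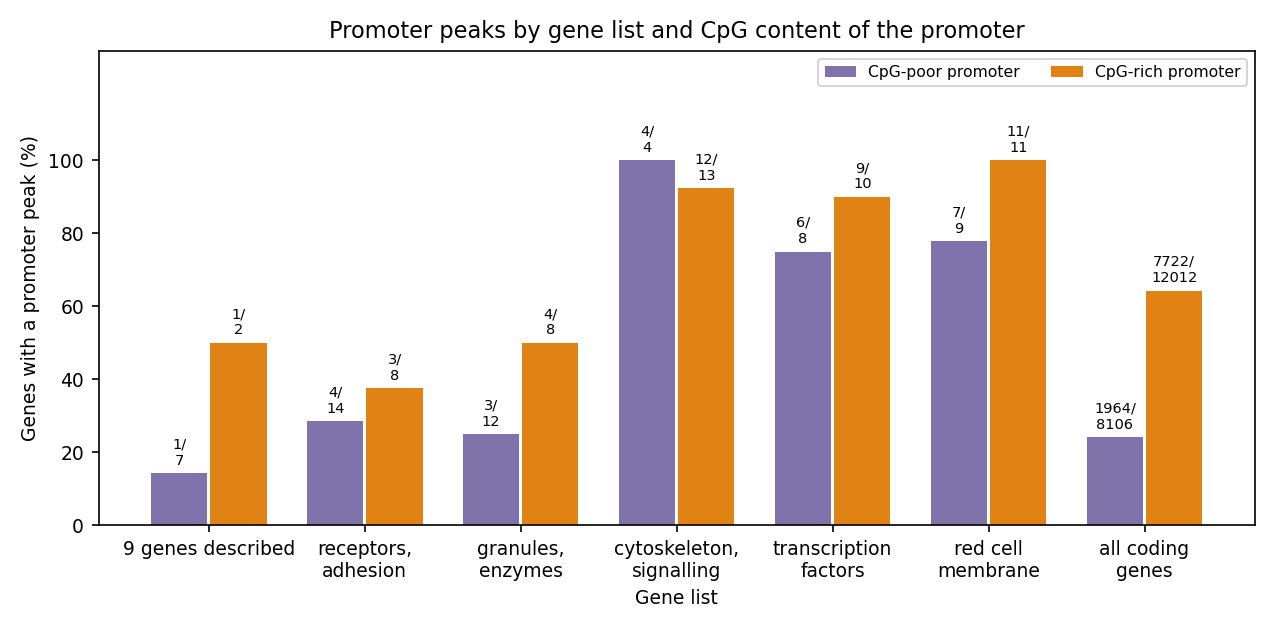
Share of genes with a promoter peak (%) in the 9 genes, in further gene lists of the lineage, in red cell membrane genes and in all coding genes, split by CpG-poor and CpG-rich promoters; numbers above the bars are genes with a promoter peak and genes in the class. In the CpG-poor class the 9 genes reach 1 of 7, the red cell membrane genes 7 of 9 and all coding genes 24.2%.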

How the data were processed

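SMARCA4 ChIP-seq of K562 cells comprised 3 ChIP and 3 input libraries. Per the study's methods and the labels, the authors used cutadapt 1.16 for trimming, BWA 0.7.15 for alignment to hg19, and Picard 2.14.0 and SAMtools 1.6 to mark and discard duplicates. MACS2 2.1.1 called peaks in every replicate against input (q-value threshold 0.05), and bedtools 2.26.0 retained regions shared by 2 or more of the 3. The deposited list has 3 columns, chromosome, start and end in bp, and no read numbers, so the depth behind a peak is unknown.

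Peaks were intersected (1 bp or more) with GENCODE release 44 lifted to GRCh37, the build of hg19, in Python 3.11.15 with numpy 2.4.6, scipy 1.17.1, pysam 0.24.0 and matplotlib 3.10.9. Sequences were read from the GRCh37 genome, and positions count from 1. Overlap and motif functions were tested on simulated data. Alternatives were other flanks, promoter definitions, peak widths and motif windows. No test between groups was made. All 9 genes are named. Of other lists, genes come from the 5 with most peaks and the 5 longest with none, except GP5, which is named beside GP1BB. Peaks described in full were the widest promoter and distal peak of each gene and those with GATA plus ETS, RUNX or AP-1; the other peaks and upstream sequences were chosen after their values were seen. The genes and lists were chosen with earlier results of these data known. PECAM1 was not matched in the annotation, and MKL1 was matched as MRTFA.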

Additional observations from a re-analysis of the deposited data

How the results depend on the processing

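Of 110 recomputed values, 35 could not change (counts of 0 under settings that only remove or merge peaks or shorten the search, and a limit of 200 bp that no peak of the windows fell under). Of the other 75, 58 stayed within 1.5 times of those reported. With no flank, 2 genes had a peak, 1 had a distal peak and 6 distinct peaks were left, with ITGA2B at 1 peak in place of 4. With a flank of 50 kb, 26 distinct peaks were counted, 7 of them at ITGA2B. Both changes follow from the smaller or larger windows. Genes with a promoter peak stayed at 2 with other promoter definitions and peak sets, the gene's own 5′ end included. When peaks within 1 kb of another named gene's start were left out, a setting chosen after seeing the data, GP1BA had 0 peaks. Searching whole peaks raised RUNX from 2 to 5 peaks, and motif counts this small move by such choices. No paired analysis was possible because the list pools the replicates, and no replicate could be left out for the same reason. A stricter peak threshold could not be applied, since the list carries no score.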

Other observations

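Beyond the windows of 10 kb, VWF had a peak within 50 kb, 484 bp wide and 43.3 kb upstream of its start, with a GATA and an AP-1 match in its central 300 bp and no start of another named gene within 1 kb. GP9 gained 2 peaks that were likewise not at the start of another named gene. The peak 33.5 kb upstream held an SP/KLF match, and the peak 43.9 kb upstream held 3 GATA matches, a RUNX match and an SP/KLF match. The 5 peaks that GP1BA gained, from 13.1 to 35.6 kb downstream, all lay within 1 kb of the start of a neighbour, such as RNF167, PFN1 or ENO3. PF4, PPBP, THBS1 and SELP had none within 50 kb either.

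VWF and SELP are also endothelial genes. Of 19 endothelial genes matched, 11 had a peak and 3 a promoter peak, at NOS3, EGFL7 and ICAM2, which is 57.9% and 15.8% beside 63.1% and 48.1% of all coding genes. EMCN, TEK, KDR, SELE and CDH5 had none.

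Among the transcription factors of the lineage, FLI1 and ETS1, which are neighbours on chromosome 11, lay 1201 and 1308 kb from the nearest peak. Whether this stretch has no peaks or was not covered by the list analysed here cannot be told apart. The erythroid markers carried up to 10 peaks per window, at HBG2, whose window is long (272 kb), and HBZ had 7 in 31.8 kb. Of the liver markers 1 of 5, APOA2, had a peak.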
